A study of Drosophila melanogaster with 6 samples.

Results

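Odorant-binding proteins are small secreted proteins that carry hydrophobic molecules through the fluid around sensory neurons, where the support cells of the sensillum release them. The best known of them serve the antenna. The genes described here are the odorant-binding protein genes that remain once the main antennal members and the Obp56 cluster are set aside. Several of these act outside smell, in taste bristles, glia, fat body or the male reproductive tract. They were taken from the platform annotation as probe sets with a single gene symbol of the form Obp plus number plus letter, without the Obp56 genes and without Obp28a, Obp69a, Obp83a, Obp83b, Obp84a, Obp19a, Obp59a and Obp19d. This gave 31 genes, represented by 32 probe sets. With a probe set of their own there were 47 genes with a symbol of that form and 11982 genes in all. The carrier lush has no such symbol and is not among the 47. Where a gene had more than 1 probe set, the one with the highest mean signal stood for it.

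The RNA came from whole heads of Drosophila melanogaster females of the w1118 genotype, a white-eyed laboratory stock, so that both diets share this allele. All females had been mated for 48 hours with isogenic males and then spent 7 days either on a normal diet of yeast, sucrose and cornmeal or on that medium enriched with coconut oil at 20% (w/v), at 23 degrees C in most cases. Each sample pooled 25 to 50 heads, and each diet had 3 biological replicates, each on 1 Affymetrix Drosophila Genome 2.0 array. The question put to these genes is whether a week on dietary fat changes their RNA level in the head. A whole head mixes sensory organs, brain, eye, muscle and fat body, so fewer cells of a type and less RNA per cell cannot be told apart.

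Signal from 50 control probe sets for proteins of other organisms set the background, as the 95th percentile on each array, between 15.2 and 21.8 signal units. Defining head markers were present: all 6 measured photoreceptor, 6 neuron and 7 glia genes, and 9 of 10 fat body genes, lay above background on every array. The 10 male accessory gland genes were mostly dim, with 1 above background on all arrays and 4 on none. Signal of 8 female germ line genes differed by diet. Its sum was 10861, 1377 and 13850 on normal diet replicates 1, 2 and 3, and 185 to 238 on the high fat diet. Its part in the results below was not tested. The summed signals of 4 other marker lists were higher on the high fat diet without overlap. They were 6964 to 8939 units on the normal and 9473 to 10440 on the high fat diet for neuron genes, and 82129 to 93889 against 97663 to 100941 for photoreceptor genes. For muscle genes they were 7047 to 8378 against 9621 to 10660, and for hemocyte genes 4782 to 6667 against 6766 to 7432. Their part in the results was not tested either. RNA integrity was read from the 3' over 5' signal of the Act5C control probe sets, which was 20.4 on high fat diet replicate 2 and 10.5 to 13.2 on the other arrays. Normal diet replicate 2 correlated more closely with each high fat array (0.952 to 0.955 across probe sets) than with either other array of its own diet (0.948 with each). That array therefore did not group with its diet. Normal diet replicates 1 and 3 correlated more closely with each other (0.952) than with any high fat array (0.939 to 0.943).

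Of the 31 genes, 16 lay above background on all 6 arrays, 8 on some arrays and 7 on none. The 16 well measured genes were Obp8a, Obp18a, Obp19b, Obp19c, Obp44a, Obp49a, Obp57a, Obp57b, Obp57c, Obp83cd, Obp83ef, Obp83g and the Obp99 genes Obp99a, Obp99b, Obp99c and Obp99d. Obp50a, Obp50d, Obp50e, Obp57e, Obp58b, Obp58c, Obp58d and Obp73a were detected on some arrays. Obp22a, Obp46a, Obp47a, Obp47b, Obp51a, Obp85a and Obp93a were not above background on any array, where their signals ran from 0.543 to 20.7 units. All 31 genes matched the reference annotation of Drosophila melanogaster Release 6 by Entrez identifier. By that annotation 16 lie on arm 2R, 9 on 3R, 4 on X and 1 each on 2L and 3L. A probe set's brightness depends on its own probes, so levels are compared between arrays and not between genes.

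**Figure D1:**
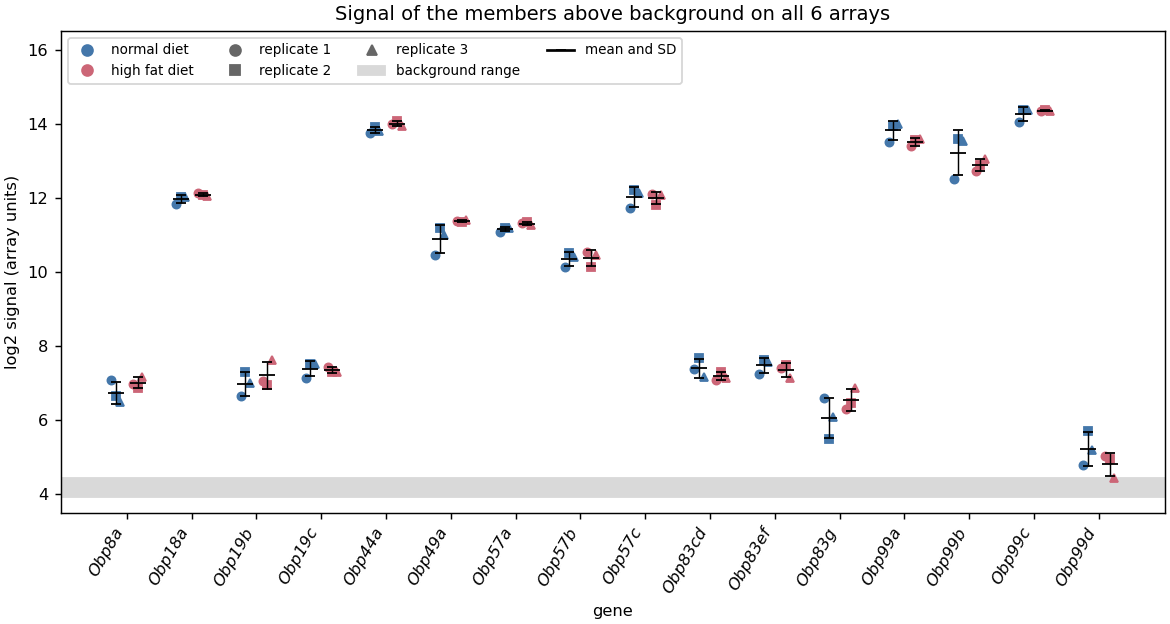
Log2 signal (array units) of the 16 genes above background on all 6 arrays, 1 point per array, with the mean and SD of each diet (n = 3) and the grey range of background between arrays. The high fat points of Obp18a, Obp44a, Obp49a and Obp57a all lie above the normal diet points, and normal diet replicate 1 is the lowest of 6 in 10 of the 16 genes.

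No gene of the group passed the test of diet. With limma fitted across 18769 probe sets and Benjamini-Hochberg adjustment, 0 of the 31 were called higher or lower at an adjusted p of 0.05, as were 0% of all probe sets. The smallest adjusted p in the group was 0.610. At an unadjusted p under 0.05 there was 1 gene, the dim Obp58d on the lower side, against 7.86% of all probe sets (2.95% higher and 4.91% lower). The mean on the high fat diet was higher in 13 genes and lower in 18, with a median log2 change of -0.04. Over all probe sets the median was also slightly negative, at -0.03, and 45.7% had a higher mean. Centring each array on its median moved both together, to 0.23 in each case, and put 20 of the 31 genes on the higher side.

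The diets did not overlap in 6 of the 31 genes, against 17.7% of all probe sets. They were Obp18a, Obp44a, Obp49a and Obp57a, higher on the high fat diet in every array (8.49% of all probe sets), and Obp58c and Obp58d, lower in every array (9.25%). The 4 on the higher side were all well measured, and the pair on the lower side was at the edge of detection. At 6 of 31, the count is close to that background share and is given as a description. Of the 16 well measured genes, 4 stood apart on the higher side and 0 on the lower. Of the 10703 probe sets above background on all arrays, 1226 and 1211 did, and the difference was not tested. How tightly each gene was measured set what could be seen. The SD pooled over diets was 0.05 to 0.44 log2 units in the 16 well measured genes (median 0.20) and 0.34 to 2.07 in the other 15 (median 1.22).

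**Figure D2:**
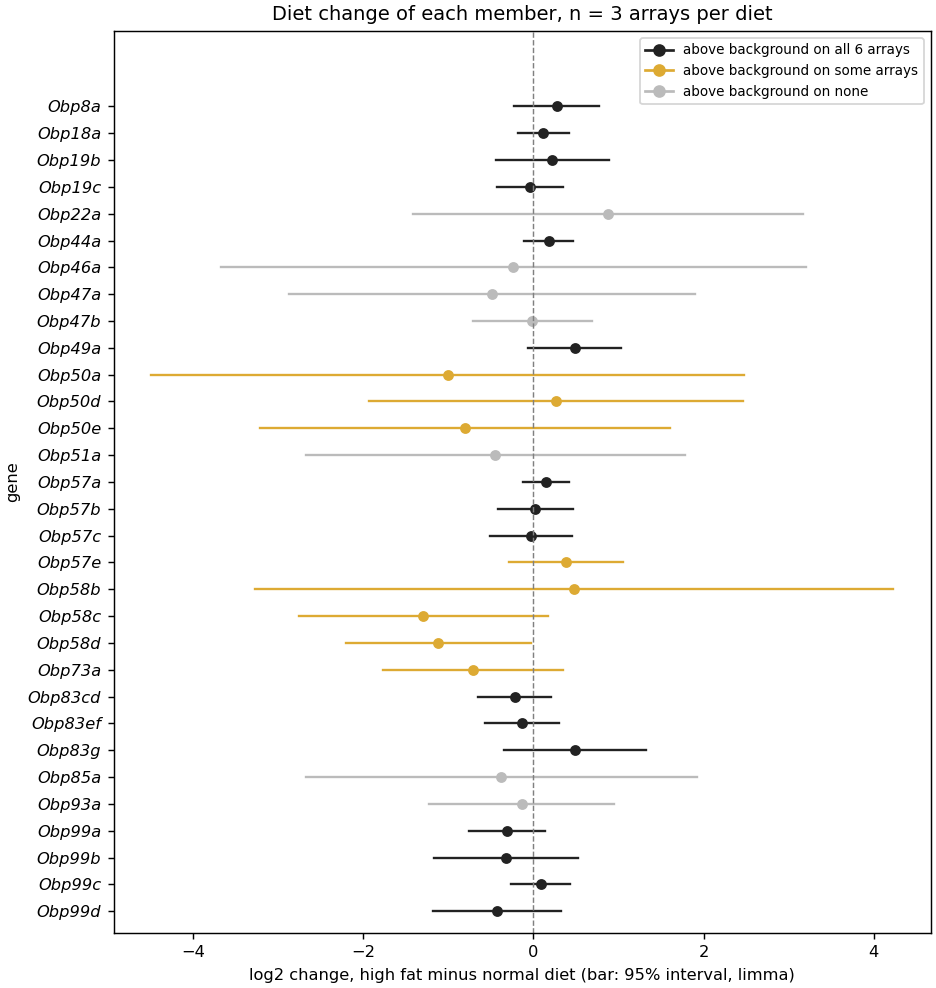
Log2 change from normal to high fat diet of each of the 31 genes, with the 95% interval of the limma fit (n = 3 arrays per diet) and colour for detection. The interval includes 0 in every gene except Obp58d, and the widest intervals belong to genes not above background on all arrays.

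Among the genes grouped under taste organs, Obp49a had the largest change. Obp49a is secreted by cells that wrap the taste neurons and is needed for bitter compounds to suppress the response to sugar. Its signal was 1413, 2328 and 2054 units on normal diet replicates 1, 2 and 3, and 2670, 2583 and 2684 on the high fat arrays. All high fat arrays lay above all normal ones and within a narrow band, and the normal diet arrays were spread, with replicate 1 far below the others. The log2 change was 0.48 (SE 0.21, 95% interval -0.06 to 1.03), a ratio of 1.40, with a limma adjusted p of 0.610. Without normal diet replicate 1 the change was 0.27 (adjusted p = 0.739). Across all alternatives run it stayed between 0.27 and 0.75, with adjusted p from 0.296 to 0.856.

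The Obp57 genes sit in a cluster on arm 2R in which Obp57c, Obp57b and Obp57a are direct neighbours, and Obp57e lies nearby beside Obp57d. Obp57e is expressed in leg taste bristles and, with Obp57d, affects how flies respond to hexanoic and octanoic acid, medium-chain fatty acids. Its signal was 16.3, 24.4 and 20.7 units on the normal diet and 34.4, 26.7 and 20.2 on the high fat diet, close to background throughout. The diets overlapped, and normal diet replicate 3 was below background on its own array. The log2 change of 0.39 (SE 0.26, limma adjusted p = 0.666) had an interval from -0.28 to 1.06, so a rise by 1 log2 unit could not be told from no change.

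The 3 other Obp57 genes of the group were bright and measured more closely. Obp57a read 2179, 2318 and 2351 units on the normal diet and 2537, 2593 and 2472 on the high fat diet. The groups stood apart by a small margin, a log2 change of 0.15 (SE 0.11, interval -0.12 to 0.42, limma adjusted p = 0.671). Obp57b read 1115, 1447 and 1362 against 1477, 1123 and 1397, and Obp57c read 3369, 4775 and 4508 against 4388, 3571 and 4360. In both the diets overlapped fully, with high fat diet replicate 2 at the low end beside normal diet replicate 1. Their changes were 0.03 (interval -0.42 to 0.47) and -0.03 (interval -0.51 to 0.45). Obp57b turned to -0.09 without normal diet replicate 1, and Obp57c to 0.07 without normal diet replicate 2 and to -0.18 without replicate 1. Whether Obp57a differs from Obp57b and Obp57c in its change was not tested.

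Obp19b, needed in labellar taste sensilla for responses to certain amino acids, lies between Obp19a and Obp19c on the X chromosome. It gave 100.2, 156.6 and 129.1 units on the normal diet and 132.4, 124.3 and 196.4 on the high fat diet. The diets overlapped and the change of 0.23 (SE 0.26, limma adjusted p = 0.785) was smaller than the spread within either diet, with SDs of 0.32 and 0.36. It was 0.02 without high fat diet replicate 3, 0.06 without normal diet replicate 1 and 0.38 without normal diet replicate 2. Its neighbour Obp19c gave 141.6, 183.8 and 181.2 units against 174.1, 157.8 and 158.3, with overlap and a change of -0.04 (SE 0.15). Of the 6 genes grouped here under taste organs, 5 averaged higher with dietary fat, the exception being Obp57c, and the median change was 0.19. After median centring Obp57c was at 0.24, and without normal diet replicate 1 Obp57b was at -0.09. Of 6 measured markers of sensillum support cells, 5 also averaged higher, with a median change of 0.21. Their summed signal was 4541 to 5143 units on the normal and 4407 to 5560 on the high fat diet, and their part in the taste genes was not tested. The list of taste genes is small and its members were grouped with earlier results of these data known.

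Obp44a is a secreted protein of glia in the central nervous system that binds fatty acids. Its signal was 13744, 15399 and 14402 units on the normal diet and 16277, 17347 and 15724 on the high fat diet. The 3 high fat arrays lay above the 3 normal diet arrays, by a narrow gap between 15399 and 15724. The log2 change was 0.18 (SE 0.11, interval -0.11 to 0.47), a ratio of 1.13, and did not pass (limma adjusted p = 0.649). The change ranged from 0.14 to 0.45 over the alternatives, and the lowest adjusted p among them was 0.414. Of the 7 glia markers 6 averaged higher on the high fat diet, with a median change of 0.04. The changes ran from -0.03 in moody to 0.29 in repo, a transcription factor of glial cells. All high fat arrays of repo lay above its normal diet ones. The summed signal of the 7 markers was 21701 to 23718 on the normal diet and 23201 to 23905 on the high fat diet. Their part in the value of Obp44a was not tested. By the Release 6 annotation the gene next to Obp44a is Lpin, which encodes lipin, an enzyme of triglyceride synthesis.

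Obp18a, on the X chromosome, was the fourth gene whose high fat values all lay above the normal ones. It measured 3648, 4186 and 4183 units on the normal diet and 4490, 4329 and 4210 on the high fat diet. Normal diet replicate 1 was low and the other normal diet values were just under the lowest high fat one. The log2 change was 0.12 (SE 0.12, limma adjusted p = 0.752), and 0.05 without that replicate. After quantile normalization its diets overlapped, and after median centring they stood apart. Obp44a, Obp49a and Obp57a stood apart after both. The other alternatives leave out an array or keep the order of the arrays in these genes, so they could not undo a separation.

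The Obp99 genes lie on arm 3R, where Obp99c, Obp99d and Obp99b follow one another with a gene between each pair, and Obp99a lies apart from them. Obp99b is known from screens of head fat cells as turn on sex-specific, a gene whose expression depends on the sex of the fly. It measured 5841, 12276 and 11946 units on the normal diet and 6815, 7568 and 8510 on the high fat diet. Normal diet replicate 1 was the lowest of all 6 arrays, at 48.2% of the mean of replicates 2 and 3, while those replicates were the highest. With all arrays the log2 change was -0.32 (SE 0.33, interval -1.16 to 0.52, limma adjusted p = 0.760). Without normal diet replicate 1 it was -0.67 (SE 0.16, unadjusted p = 0.0114, adjusted p = 0.631). Without normal diet replicate 2 it was -0.14 and without replicate 3 -0.16, and no fit passed.

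Obp99a followed a similar course, with 11758, 15731 and 16444 units on the normal diet and 10739, 12177 and 12261 on the high fat diet. Normal diet replicates 2 and 3 were above all high fat arrays, and replicate 1 lay among them. The log2 change was -0.31 (SE 0.17, interval -0.75 to 0.13, limma adjusted p = 0.631), and -0.46 without normal diet replicate 1 (adjusted p = 0.728). After median centring it was -0.04, while all probe sets then had a median of 0.23. After quantile normalization it was -0.35 (interval -0.67 to -0.04, limma adjusted p = 0.573), and the diets did not overlap. Obp99d, close to background, read 27.6, 52.0 and 36.6 units against 32.5, 30.7 and 21.7, and overlapped between diets (change -0.43, SE 0.30, adjusted p = 0.671). That change was -0.65 without normal diet replicate 1, -0.19 without replicate 2 and -0.25 without high fat diet replicate 3. Obp99c read 17060, 21225 and 21287 against 20823, 21293 and 20879, and its high fat values agreed closely. Its change of 0.09 (SE 0.14, interval -0.26 to 0.43) turned to -0.02 without normal diet replicate 1.

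Of the 10 fat body markers, 5 averaged higher with dietary fat, and the median log2 change over the 10 was -0.00019. Their summed signal was 127282 on normal diet replicate 1, 160202 and 164951 on normal diet replicates 2 and 3, and 144295 to 151834 on the high fat diet. Lsp2, a storage protein of the fat body, read 17124, 23358 and 24346 units on the normal diet and 15416 to 16942 on the high fat diet. fit, a secreted protein of female head fat cells, read 15936, 22037 and 23663 against 16459 to 16630. In both genes, as in Obp99a, normal diet replicates 2 and 3 were above the other 4 arrays. Lsp2 and fit were chosen after their values were seen. Of the other markers, apolpp, FASN1 and sxe2 took the same course. On normal diet replicates 2 and 3 apolpp read 26485 and 26018 units, and at most 25760 on the other arrays. FASN1 read 25227 and 24868 against at most 24291, and sxe2 769 and 728 against at most 636. The yolk protein genes and Lpin took another course, and Fbp1 was not above background on any array. The yolk protein genes Yp1, Yp2 and Yp3 had log2 changes of 0.12, 0.12 and 0.17, and Lpin read 1941, 1939 and 1560 units on the normal diet and 1984 to 2223 on the high fat diet (change 0.24). The part of these markers in the Obp99 values was not tested.

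The Obp83 genes Obp83cd, Obp83ef and Obp83g are direct neighbours on arm 3R. Obp83cd and Obp83ef encode proteins with a repeated odorant-binding domain. Obp83cd measured 166.2, 202.6 and 142.8 units on the normal diet and 136.5, 157.5 and 141.3 on the high fat diet. Obp83ef measured 151.7, 196.0 and 188.8 against 169.9, 179.2 and 139.9. Both overlapped between diets, with changes of -0.22 (SE 0.17, limma adjusted p = 0.697) and -0.13 (SE 0.17, adjusted p = 0.806) that became positive, 0.05 and 0.14, after median centring. Without normal diet replicate 2 they were -0.09 and -0.06. Obp83g gave 96.3, 45.0 and 67.5 units on the normal diet and 79.3, 87.6 and 116.1 on the high fat diet, where normal diet replicate 2 was the lowest. Its change of 0.49 (SE 0.33, adjusted p = 0.664) had the widest interval of the well measured genes on the high side, up to 1.32. Without normal diet replicate 1, its highest normal value, the change was 0.76 (adjusted p = 0.739), and without replicate 2, its lowest, 0.21. The diets overlapped in the values as deposited. They did not overlap after quantile normalization (change 0.74, interval 0.09 to 1.38, limma adjusted p = 0.573). The same held after median centring (change 0.76, interval 0.10 to 1.41, adjusted p = 0.460).

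Obp8a, Obp22a and Obp51a encode seminal fluid proteins made in the male reproductive tract and passed to females at mating. Obp22a and Obp51a were not above background on any array of these female heads. Obp8a was measured on all, with 134.4, 99.7 and 90.3 units on the normal diet and 126.5, 117.5 and 144.5 on the high fat diet. The diets overlapped because normal diet replicate 1 was high, unlike in most of the group. The log2 change was 0.28 (SE 0.20, limma adjusted p = 0.673), and 0.44 without that array (unadjusted p = 0.0468, adjusted p = 0.739). Without normal diet replicate 3 it was 0.16. After quantile normalization the change was 0.51 (interval 0.09 to 0.92, limma adjusted p = 0.573). After median centring it was 0.54 (interval 0.08 to 1.01, adjusted p = 0.460). The diets did not overlap under either scaling.

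The pair that stood apart on the lower side, Obp58c and Obp58d, was dim. Obp58b, Obp58c and Obp58d are direct neighbours on arm 2R, next to Obp59a. Obp58c read 26.3, 20.1 and 37.3 units on the normal diet, above background on each array, and 16.1, 17.3 and 4.82 on the high fat diet, above background on 1 of 3. Its change of -1.29 (SE 0.58, interval -2.76 to 0.17, limma adjusted p = 0.610) shrank to -0.72 when values below 16 were set to 16, and was -0.70 without high fat diet replicate 3. Obp58d read 15.97, 11.99 and 5.33 units against 4.94, 4.68 and 4.32. It was above background only on normal diet replicate 1, so its change of -1.12 (SE 0.43, unadjusted p = 0.0458, adjusted p = 0.610) compares signals near or under background. Obp58b, with 1 array of each diet above background, read from 1.32 to 29.5 units with no order by diet.

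The Obp50 genes lie close together on arm 2R and were detected now and then. Obp50d was above background on 2 arrays of each diet, Obp50e on 1 of each and Obp50a on normal diet replicate 3 alone. Their SEs of 0.87 to 1.38 log2 units exceeded their changes, which were 0.27, -0.80 and -1.01. Obp73a, an odorant-binding protein conserved well beyond flies, read 31.4 units on normal diet replicate 1 and 9.47 to 14.3 on the other arrays. It was above background on that array only (change -0.71, SE 0.42, limma adjusted p = 0.635).

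Normal diet replicate 1 was often the lowest array in these genes. In 10 of the 16 well measured genes it held the lowest signal of the 6 arrays, and in none the highest, while it was the lowest in 14.1% and the highest in 15.8% of the 10703 probe sets above background on all arrays. This was also seen in odorant-binding protein genes outside the group, where it was the lowest in all 6 well measured genes of the Obp56 cluster and in 3 of the 5 well measured antennal ones. Of the 8 well measured genes for other soluble carriers of the chemosensory organs, 2 had their lowest and 2 their highest signal on it. It was also the lowest in some marker genes, such as Yp1, Yp2 and Yp3, and not in others, such as Lpin and repo. Relative to each gene's mean over the arrays, the median deviation of the 16 genes on this array was -0.21 log2 units. The medians of the other 5 arrays lay between 0.01 and 0.15. The 3 genes above their own mean on this array were Obp8a, Obp83cd and Obp83g. The same array had the highest median signal over all probe sets, 86.2 units against 59.0 to 77.4, and the lowest Act5C 3'/5' ratio, and the part of either in this pattern was not tested.

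**Figure D3:**
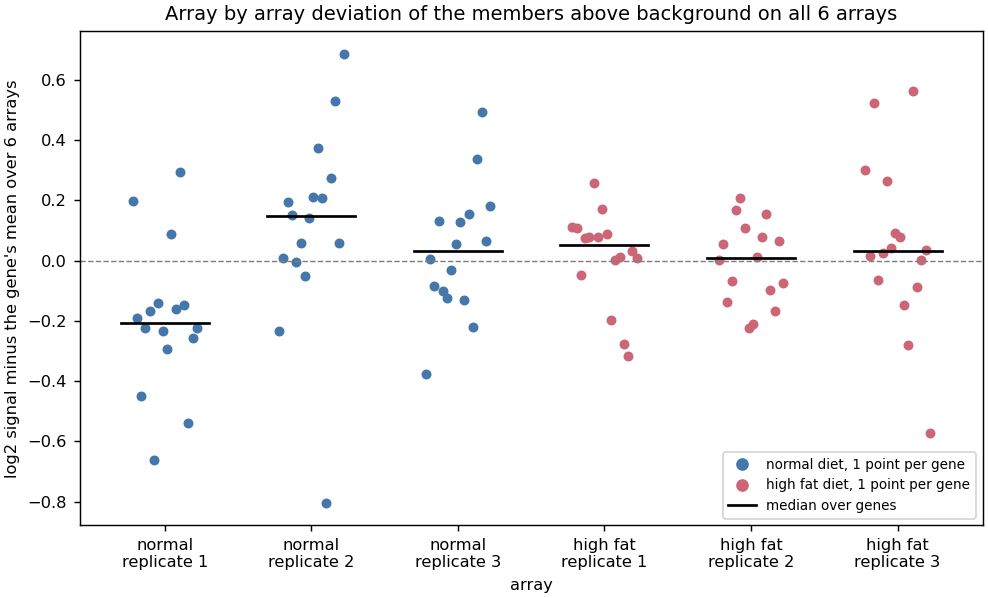
Log2 signal of each of the 16 well measured genes minus that gene's mean over the 6 arrays, with arrays on the horizontal axis, 1 point per gene and a bar at the median over genes. Most points of normal diet replicate 1 lie below 0 (13 of 16; median -0.21), while the other arrays have medians from 0.01 to 0.15.

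Leaving out that array changed which genes stood apart. With 2 normal and 3 high fat arrays the diets did not overlap in 16 of the 31 genes, 6 higher and 10 lower, against 28.2% of all probe sets (12.8% higher and 15.4% lower). The higher ones were Obp8a, Obp18a, Obp44a, Obp49a, Obp57a and Obp83g. The lower ones included Obp99a, Obp99b, Obp99d, Obp57c, Obp83ef and Obp19c among the well measured genes, and Obp47a, Obp50a, Obp58c and Obp58d among the dim ones. At an unadjusted p under 0.05 there were 4 genes, Obp8a, Obp47a, Obp99a and Obp99b, against 6.38% of all probe sets. None passed after adjustment, with 0.557 as the smallest adjusted p, and 0 of all probe sets passed in that fit. This array was singled out after the values were seen.

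The 31 genes were set beside the Obp genes that the rule names and leaves out. The carrier lush, whose symbol lacks the Obp form, was counted with the other soluble carriers and in neither group below (log2 change -0.36). The 7 antennal genes with a probe set of their own had a median log2 change of 0.82, and the 9 genes of the Obp56 cluster one of 0.49, against -0.04 here. In those groups the diets stood apart, all on the higher side, in 3 of 7 and 5 of 9 genes. Here it was 4 higher and 2 lower of 31, and over all probe sets 8.49% higher and 9.25% lower. Unadjusted limma p was under 0.05 in 2 and 3 genes, all higher, against 2.95% of all probe sets on that side. No gene of either group passed after adjustment (smallest adjusted p 0.128 and 0.312). The largest change among the well measured genes here was 0.49 in Obp83g. The largest among well measured genes of those groups were 1.41 in the antennal Obp28a and 0.92 in Obp56f. Obp19d (0.26), Obp56d (0.28) and Obp56h (0.11), also well measured, changed less than Obp83g, and Obp56g (0.49) about as much. The other well measured genes of those groups changed more. All values come from the same 6 arrays, and the difference between the groups was not tested.

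**Figure D4:**
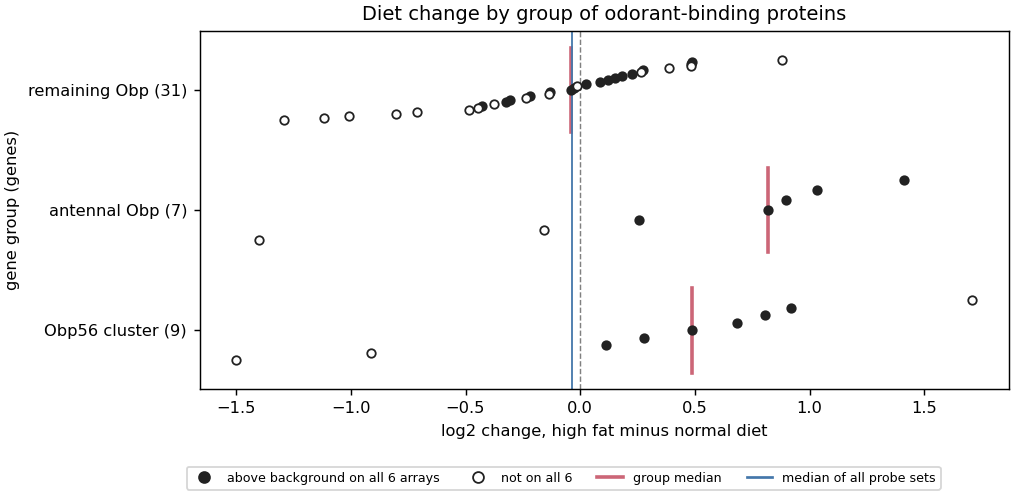
Log2 change from normal to high fat diet on the horizontal axis for the 31 genes described here, the 7 antennal genes and the 9 genes of the Obp56 cluster, with filled points for genes above background on all 6 arrays. Bars mark the group medians of -0.04, 0.82 and 0.49, and the line at -0.03 is the median of all probe sets.

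The intervals describe the precision of the values as deposited, and they move with the scaling. Over the 16 well measured genes the upper 95% limits of the change ran from 0.13 to 1.32 log2 units and the lower limits from -1.18 to -0.06. The upper limit was under 0.5 in 11 of the 16, among them Obp44a (0.47), Obp57a (0.42) and Obp99c (0.43), and the lower limit was above -0.5 in 10 of the 16. After median centring the upper limits ran from 0.62 to 1.52 and were under 0.5 in 0 of the 16. Those of Obp44a, Obp57a and Obp99c were then 0.97, 0.90 and 0.93. After quantile normalization 8 of the 16 were under 0.5. For the 15 genes that were not above background on all arrays the SE was 0.26 to 1.48.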

How the data were processed

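The table that the authors deposited holds linear intensity values from Affymetrix Expression Console, per the submitters' processing notes, with a column for each array. Its version and probe summary method are not stated there. With 2% of the 18952 probe sets trimmed at either end, the mean of every array was 500 to the nearest unit, so 1 scaling factor per array was used and array medians still differ (59.0 to 86.2). From these, log2 values were computed with values below 1 set to 1 (2010 values). After leaving out 183 control probe sets, 18769 were fitted with limma 3.58.1 in R 4.3.3, high fat minus normal diet, with Benjamini-Hochberg adjustment (threshold 0.05). Figures were drawn with matplotlib 3.10.9. The fit was tested on simulated data.

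Values per array are given for members above background on all arrays, apart between diets with all arrays of a diet above background, or with an unadjusted p under 0.05; Obp57e, Obp73a and other dim genes were added after their values were seen. The members, lists and background definition were chosen with earlier results of these data known. Probe sets shared by several genes were not used for members. A single gene symbol was given for 13647 tested probe sets, several for 402 and none here for 4720. The number of arrays limits the precision. No column was left unused (0). At most 0.00528% of values were identical between a pair of arrays. Deviations of same-numbered arrays from their diet means correlated at -0.07, 0.0002 and 0.03. Deviations from a mean of 3 arrays are tied to one another, so these values cannot decide whether the numbers pair the arrays. Alternatives were quantile normalization, median centring, a floor of 16, log2(value + 16), trend and robust moderation, leaving out dim probe sets, the mean of a gene's probe sets, a replicate block and leaving out each array.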

Additional observations from a re-analysis of the deposited data

How the results depend on the processing

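No member passed an adjusted p of 0.05 under any alternative run, with 0.227 as the smallest adjusted p (Obp58d without normal diet replicate 3). Members with a higher mean numbered 13, and 20 after median centring, which moved the median of all probe sets from -0.03 to 0.23; leaving out 1 array gave 13 to 20. Members with an unadjusted limma p under 0.05 numbered 1, against 7.86% of all probe sets. They numbered 3 after quantile normalization, 2 after median centring and 3 with values below 16 set to 16. With log2(value + 16) there were 2, and 2 with trend and robust moderation. With 1 array left out there were 0 to 4, the 4 without normal diet replicate 1, against 6.38% of all probe sets in that fit. With the replicate block there were 2 (Obp50a and Obp58d), and it changed no other count and no call. The labels link the arrays of a block only by their number. Members whose diets did not overlap numbered 6, against 17.7% of all probe sets. With 1 array left out they numbered 6 to 16, the 16 without normal diet replicate 1, against 28.2% of all probe sets there. Shares of all probe sets under the other alternatives are not given here. The median change ran from -0.09 to 0.14 with 1 array left out.

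The sign turned in 6 well measured genes, whose changes ran from -0.22 to 0.09. After quantile normalization Obp19c was at 0.18 and Obp83ef at 0.070. After median centring Obp19c was at 0.23, Obp57c at 0.24, Obp83cd at 0.048 and Obp83ef at 0.14, close to or below the shift of all probe sets. With the mean of both its probe sets, 1 of them never above background, Obp19c was at 0.43. With 1 array left out, Obp19c ran from -0.16 to 0.027, Obp57b from -0.085 to 0.14, Obp57c from -0.18 to 0.069 and Obp99c from -0.018 to 0.14. Apart from the scaling itself, the cause of these turns was not tested. With dim probe sets left out 18 of the 31 members were fitted, and the median change of those was 0.10. Obp58d had no value with a floor of 16, since all its signals lay under it. Signal near background limits the other 15 genes.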

Other observations

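Probe sets that the platform annotation assigns to more than 1 gene stayed outside the comparisons. The brighter of the pair shared by Obp57d and Cpr57A, a cuticle protein gene, read 389.4, 551.8 and 517.8 units on the normal diet and 552.7, 458.2 and 512.7 on the high fat diet. The diets overlapped (log2 change 0.07, SE 0.18), and normal diet replicate 1 was again the lowest array. The brighter one shared by Obp50b and Obp50c read 8.43 to 39.7 units without order by diet. The second probe set of Obp19c was not above background on any array.

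Of 18 other genes for soluble carriers of the chemosensory organs, 9 averaged higher with dietary fat and 0 passed the limma test. At an unadjusted limma p under 0.05 there were 3, 2 higher and 1 lower, against 7.86% of all probe sets. The higher ones were CheA87a and CheB42b, the latter not above background on any normal diet array. The lower one, CheB98a, was not above background on any array. EbpIII, an ejaculatory bulb protein of a family of chemosensory carriers, read 15286, 17809 and 17608 units on the normal diet and 20499, 19962 and 20158 with dietary fat (log2 change 0.26, SE 0.12, limma adjusted p = 0.610). Its high fat arrays all lay above the normal ones. CheA87a read 156.4, 330.2 and 295.8 units against 463.0, 406.6 and 513.2, also without overlap (change 0.89, SE 0.32, adjusted p = 0.610). Both genes had their lowest signal on normal diet replicate 1. Of the 8 well measured carriers only these 2 did, and 2 others had their highest signal there. lush, the carrier needed for the response to the male pheromone cis-vaccenyl acetate, overlapped between diets (change -0.36, SE 0.33). EbpIII, CheA87a and lush were chosen after their values were seen.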
